A study of Mus musculus with 4 samples.

Results

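SR proteins are splicing factors that carry RNA recognition motifs (RRMs) and a domain rich in arginine and serine dipeptides, and the 10 genes described here are the members of this family *Srsf1*, *Srsf2*, *Srsf3*, *Srsf4*, *Srsf5*, *Srsf6*, *Srsf7*, *Srsf9*, *Srsf10* and *Srsf11*. They were chosen by symbol, and all 10 were found among the 50559 genes of the deposited count table. All 10 also had a mean count of at least 10 reads over the libraries, as 18586 genes did. The data were poly(A)+ RNA-seq of E14 cells, a line of mouse embryonic stem cells (ESCs), grown on gelatin with leukemia inhibitory factor and a serum replacement, and the study asked how YTHDF2, a cytoplasmic protein that binds the RNA modification m6A, acts on the rare 2-cell-like (2C) state of these cells. There were 4 libraries, 1 per group. The control cells had a scrambled hairpin and an empty vector (shScram+EV). The others had a *Ythdf2* hairpin with the empty vector (shYthdf2+EV, knockdown), or a *Ythdf2* hairpin and a construct for wild-type YTHDF2 (shYthdf2+DF2WT, wild-type) or for an m6A-binding mutant of YTHDF2 (shYthdf2+DF2Mut, mutant). Per the study's methods, hairpins were delivered by lentivirus and stable lines were made by puromycin selection, so all 4 groups carried a hairpin, and each was a drug-selected population. The methods also state that the ESCs carried a tdTomato transgene under the promoter of the MERVL retrotransposon. The constructs are described as transfected into the knockdown cells. The promoter that drives the constructs is not given in the sources used here.

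SR proteins bind enhancer sequences in exons, help the spliceosome recognise splice sites, and are controlled by phosphorylation of their arginine-serine domain. Several of them shuttle to the cytoplasm and take part in mRNA export and translation. Genes of the family are known for a feedback loop in which the protein promotes inclusion of a "poison" exon with an early stop codon in its own transcript, and the resulting mRNA is destroyed by nonsense-mediated decay. SRSF3 is also known as a partner of the nuclear m6A reader YTHDC1 in splicing, whereas YTHDF2 recruits deadenylases to m6A-carrying mRNA in the cytoplasm.

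In the GENCODE vM21 annotation of the mm10 mouse genome, 9 of the 10 genes, all but *Srsf10*, had a transcript classed as subject to nonsense-mediated decay, compared with 26.9% of the 14324 tested genes that had a protein-coding transcript. In 5 of them such a transcript ends its reading frame in an internal exon that overlaps no exon of a protein-coding transcript. These exons are shown because a gene count does not separate their reads, where the counting annotation holds them, from those of the productive mRNA. Each line gives the exon from its first base to its stop codon, 5′ to 3′, with the stop codon in capitals.
*Srsf3*, exon 4 of Srsf3-201, mm10 chr17:29039454-29039487, plus strand: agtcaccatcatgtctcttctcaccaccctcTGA
*Srsf7*, exon 4 of Srsf7-203, mm10 chr17:80205054-80205081, minus strand: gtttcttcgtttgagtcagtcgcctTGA
*Srsf11*, exon 4 of Srsf11-206, mm10 chr3:158024209-158024231, minus strand: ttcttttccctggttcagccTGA
*Srsf9*, exon 2 of Srsf9-205, mm10 chr5:115328347-115328428, plus strand: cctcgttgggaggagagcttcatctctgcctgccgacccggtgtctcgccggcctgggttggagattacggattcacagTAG
*Srsf4*, exon 2 of Srsf4-203, mm10 chr4:131884276-131884390, plus strand: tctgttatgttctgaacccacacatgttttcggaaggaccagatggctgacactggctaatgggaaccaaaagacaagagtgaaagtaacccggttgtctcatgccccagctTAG
The stop codon ended 34 bases into the exon in *Srsf3*, 28 in *Srsf7*, 23 in *Srsf11*, 82 in *Srsf9* and 115 in *Srsf4*, within exons of 456, 460, 109, 358 and 207 bases. *Srsf11* had a further such exon. The deposited table, which uses the mm39 build, lists an exon of the same length in *Srsf3*, *Srsf4*, *Srsf7* and *Srsf11* but not in *Srsf9*. Coordinates were not converted between builds, so this is a match of lengths only. A gene count sums all annotated exons, and the productive and poison forms of an mRNA cannot be told apart in the values that follow.

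Total counts were between 31533129 and 35742335 reads per library, and mitochondrial genes took between 6.14% and 8.44% of them, the most in shScram+EV. *Ythdf2* itself had 2806 reads in the scrambled library, 662 on knockdown, 7661 with wild-type YTHDF2 and 6925 with the mutant, so the targeted gene was low in the knockdown library and high in both libraries with a construct. All 8 ESC markers, *Pou5f1* and *Nanog* among them, had at least 5967 reads in every library. Of 8 fibroblast markers, 2 or 3 were at 0 reads in a library, with a summed level of 22.5 to 40.1 CPM (counts scaled to a library of 1e6 reads), and 6 primitive endoderm markers summed to 10.2 to 16.5 CPM. The 6 trophectoderm markers summed to 99.2 to 141 CPM. The summed level of 8 markers of the 2C state was 135 CPM in the scrambled library, 459 on knockdown, 147 with wild-type YTHDF2 and 406 with the mutant. These sums are weighted to the markers with most reads. All 8 were higher on knockdown than in the scrambled library, and all 8 lower in each rescue than on knockdown. With the mutant 2 were more than 2-fold lower than on knockdown, and 1 of the 8 was lower than with wild-type YTHDF2. With wild-type YTHDF2 1 was still more than 2-fold above the scrambled library. The part of the 2C markers in the SR gene values was not tested, and in these bulk samples more cells of a type and more RNA per cell cannot be told apart.

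Levels can be compared between genes only per length, and TPM (transcript levels per length, scaled to a sum of 1e6) were computed from the counts and the exon lengths of the table. *Srsf5* stood highest, with 692 TPM in the scrambled library, 978 on knockdown, 862 with wild-type YTHDF2 and 858 with the mutant. *Srsf3* came second in every library, at 343, 561, 407 and 540.0 TPM, libraries ordered as before. *Srsf4* was the lowest in every library, between 15.9 and 17.9 TPM. It was 5.72 to 6.60 times below *Srsf11*, the next in level. Between these ends lay *Srsf2*, *Srsf6*, *Srsf1* and *Srsf7*, all between 204 and 349 TPM, and *Srsf9*, *Srsf10* and *Srsf11*, all between 94.6 and 134 TPM.

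Some neighbours in the order did not differ beyond counting error. In shScram+EV *Srsf6* was 1.02 times *Srsf1* (95% interval 0.983 to 1.05), and *Srsf10* was 1.01 times *Srsf11* (0.968 to 1.05). In shYthdf2+EV the same held for *Srsf7* and *Srsf1* (1.00, 0.967 to 1.04) and for *Srsf10* and *Srsf9* (1.00, 0.937 to 1.07). With wild-type YTHDF2 it held for *Srsf1* and *Srsf7* (1.02, 0.978 to 1.05) and for *Srsf10* and *Srsf11* (1.03, 0.990 to 1.08). With the mutant it held for *Srsf10* and *Srsf9* (1.05, 0.975 to 1.13) and for *Srsf9* and *Srsf11* (1.00, 0.929 to 1.08). *Srsf6* passed above *Srsf2* only in shYthdf2+DF2Mut, by 1.14 times (1.10 to 1.18), and was below it in the other 3 libraries. The order depends on the length used. *Srsf1*, which ranked 5 in mean TPM with a summed exon length of 6434 bases, ranked 1 when counts were divided by the length of 1 coding transcript of 1209 bases, and *Srsf5* then ranked 2. The 10 genes summed to 2292 TPM in the scrambled library, 3007 on knockdown, 2568 with wild-type YTHDF2 and 2909 with the mutant, which was 0.293%, 0.371%, 0.323% and 0.343% of all reads.

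**Figure D1:**
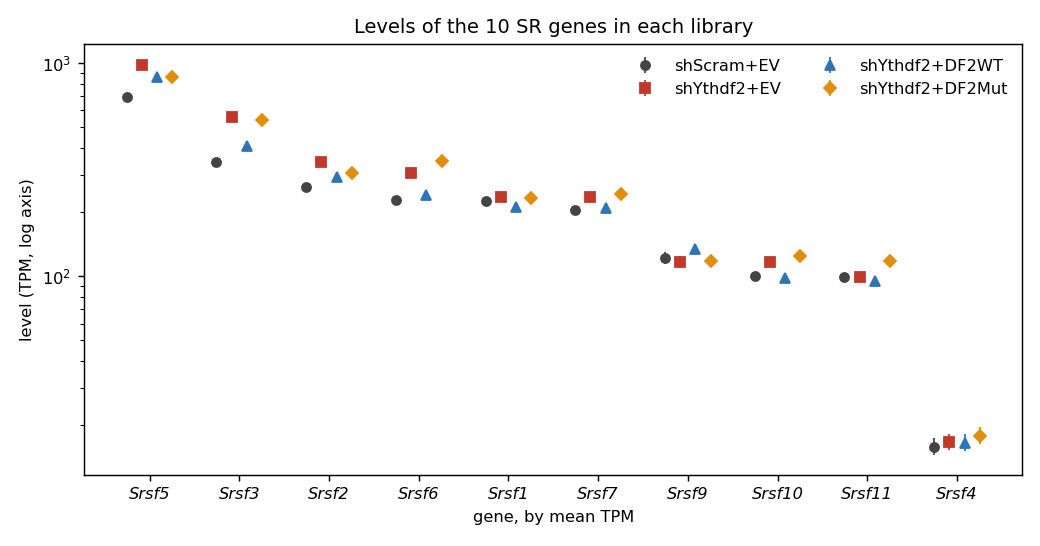
Level of each of the 10 SR genes in TPM (log axis), with 1 point per library and 95% Poisson intervals on read pairs, mostly smaller than the points. *Srsf5* and *Srsf3* lie above the other genes in all 4 libraries, and *Srsf4* lies between 15.9 and 17.9 TPM.

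For comparisons between libraries, counts were scaled by the trimmed mean of M-values (TMM), which takes most genes to be unchanged, and given as log2 ratios. Each 95% interval covers counting error on read pairs only. No group had a replicate, so the ratios compare libraries and no p-value is given. The 4 comparisons were shYthdf2+EV against shScram+EV (knockdown), each rescue against shYthdf2+EV, and shYthdf2+DF2Mut against shYthdf2+DF2WT. They share libraries: a high value in shYthdf2+EV enters the knockdown and both rescues with opposite sign.

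On knockdown, 8 of the 10 SR genes were higher and 2 were lower, with a median log2 ratio of 0.18. The median was -0.0015 over the 18586 tested genes and -0.00041 over the 6315 genes averaging 1000 or more reads. *Srsf3*, *Srsf5*, *Srsf6* and *Srsf2* had the 4 highest ratios, between 0.35 and 0.68 on the log2 scale, and *Srsf1*, *Srsf4*, *Srsf9* and *Srsf11* lay between -0.10 and 0.03. No SR gene was past 2-fold, against a background of 12.8% of tested genes. Of the 6315 genes averaging 1000 or more reads, which include 9 of the SR genes, only 49 were past 2-fold. *Srsf3* alone was past 1.5-fold, which 26.7% of tested genes were in either direction and 13.8% in the higher direction. Among the genes averaging 1000 or more reads the share that was 1.5-fold higher was 2.99%.

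With wild-type YTHDF2 added back, 8 of the 10 genes were below the knockdown library, with a median of -0.15, and with the mutant 8 of 10 were lower, with a median of -0.08. Between the mutant and the wild-type rescue 5 genes were higher and 5 lower in the mutant, with a median of 0.04. Over the genes averaging 1000 or more reads the medians were -0.02 in the wild-type rescue, 0.03 in the mutant rescue and 0.05 for mutant against wild-type, so that the last SR median was near the background. Of those genes 46.4%, 58.9% and 56.0% were higher. None passed 2-fold or 1.5-fold in these comparisons. The background for 2-fold was 10.7% of tested genes in the wild-type rescue, 6.03% in the mutant rescue and 11.6% in the mutant against the wild-type. For 1.5-fold it was 23.3%, 15.3% and 27.1%. Genes with few reads enter these shares, whereas 9 of the 10 SR genes averaged 1000 or more reads. Of the 6315 genes at that depth, 96 were 1.5-fold higher and 102 lower in the wild-type rescue. In the mutant rescue 4 were higher and 56 lower, and for mutant against wild-type 184 and 234. Past 2-fold in either direction were 30, 3 and 35, so that few genes at that depth passed either fold. After correction of each ratio for GC content and exon length over all tested genes, the knockdown median was 0.08, the mutant rescue median was -0.10, the wild-type rescue median turned from negative to 0.04, and the median of mutant against wild-type turned from positive to -0.11. Below, the GC correction means this joint correction for GC content and exon length. The parts of GC content and of exon length in it were not separated.

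**Figure D2:**
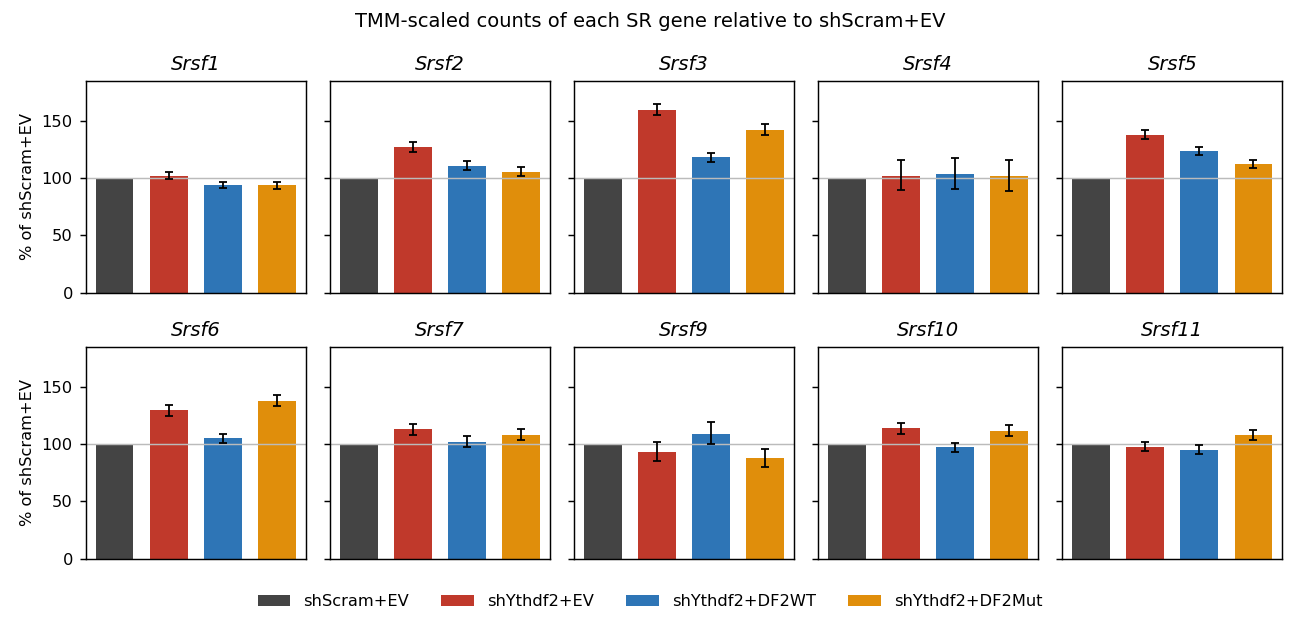
TMM-scaled count of each SR gene in each library as a percentage of its value in shScram+EV, with 95% counting intervals of the ratio, from 1 library per group. *Srsf2*, *Srsf3*, *Srsf5* and *Srsf6* stand at 127% to 159.7% in shYthdf2+EV, and of these only *Srsf6* stands higher in shYthdf2+DF2Mut than in shYthdf2+EV, at 138%.

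The genes for SR proteins with 1 RRM are *Srsf2*, *Srsf3* and *Srsf7*, and all 3 were higher on knockdown and lower in both rescues than in shYthdf2+EV. *Srsf3* encodes the smallest protein of the family, a shuttling factor that links splicing to mRNA export by the receptor NXF1. It lies at mm39 chr17:29251634-29262346, on the plus strand, with a summed exon length of 3041 bases. It had 13143 reads in the scrambled library, 23872 on knockdown, 16184 with wild-type YTHDF2 and 18857 with the mutant. The knockdown library was the highest and the scrambled library the lowest. The log2 ratio on knockdown was 0.68 (95% interval 0.63 to 0.72), or 59.7% higher, which was above the ratio of 98.3% of the 6315 genes averaging 1000 or more reads. In shYthdf2+DF2WT *Srsf3* was lower than in shYthdf2+EV by a log2 ratio of -0.43 (-0.47 to -0.39), below which only 4.39% of those genes lay. In shYthdf2+DF2Mut the ratio was -0.16 (-0.20 to -0.12), and the mutant library was above the wild-type one by 0.27 (0.23 to 0.31). Compared with shScram+EV, *Srsf3* still stood 18.2% higher in shYthdf2+DF2WT and 42.5% higher in shYthdf2+DF2Mut.

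*Srsf3* has a low GC content of 40.9% in its longest transcript. Corrected for GC content and exon length, its log2 ratio was 0.53 on knockdown, -0.20 in the wild-type rescue, -0.18 in the mutant rescue and 0.01 for mutant against wild-type. It was then under 1.5-fold on knockdown, and the difference between the rescues was no longer seen. Across the other 4 scalings of the libraries its knockdown ratio was between 0.66 and 0.72. The processed pseudogene *Srsf3-ps* had 24, 31, 32 and 52 reads in the 4 libraries, ordered as above. Reads that match both copies equally well were left out of the counts, so the *Srsf3* counts may be low by an unknown amount.

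*Srsf2* encodes a factor known as a marker of nuclear speckles and lies at mm39 chr11:116740723-116744511 on the minus strand. It had 11763 reads in the scrambled library, 17057 on knockdown, 13571 with wild-type YTHDF2 and 12514 with the mutant. The knockdown library was again the highest and the scrambled one the lowest. Its log2 ratio was 0.35 on knockdown (0.30 to 0.40), -0.20 in the wild-type rescue (-0.25 to -0.16) and -0.27 in the mutant rescue (-0.32 to -0.22). The mutant and wild-type rescues were close, at -0.07 (-0.12 to -0.02). The GC correction left these values at 0.37, -0.25, -0.30 and -0.05. The GC content of *Srsf2* was 49.97%. Of its exon bases 16.2% are shared with *Mfsd11* on the other strand, and the counting took no account of strand, so reads in that overlap were assigned to neither gene.

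*Srsf7* encodes a shuttling factor with a zinc knuckle beside its RRM, and lies at mm39 chr17:80507509-80514798 on the minus strand. Its counts were 7222, 9284, 7693 and 7878 in the scrambled, knockdown, wild-type and mutant libraries, with the knockdown the highest. The log2 ratio was 0.18 on knockdown (0.11 to 0.24), -0.14 in the wild-type rescue (-0.21 to -0.08) and -0.06 in the mutant rescue (-0.12 to 0.00), and 0.08 between the rescues (0.02 to 0.15). Corrected values were 0.04, 0.07, -0.07 and -0.14, with a change of sign in the wild-type rescue and between the rescues.

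The genes for SR proteins with 2 RRMs were less alike. On knockdown *Srsf5* and *Srsf6* stood apart from *Srsf1*, *Srsf4* and *Srsf9*. *Srsf6*, which encodes a splicing regulator of the family with a long arginine-serine domain, lies at mm39 chr2:162773428-162779041 on the plus strand. It had 10230 reads in the scrambled library, 15088 on knockdown, 11196 with wild-type YTHDF2 and 14212 with the mutant. The knockdown and mutant libraries were high, and the scrambled and wild-type libraries low. Its log2 ratio was 0.37 on knockdown (0.32 to 0.43), -0.30 in the wild-type rescue (-0.35 to -0.25) and 0.09 in the mutant rescue (0.04 to 0.14). The mutant library exceeded the wild-type one by 0.39 (0.34 to 0.44), the highest of the 10 genes, which was above 89.2% of the genes averaging 1000 or more reads. With the GC correction, *Srsf6* kept the sign of all 4 ratios, at 0.28, -0.12, 0.04 and 0.17.

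*Srsf5* encodes a splicing regulator with a pair of RRMs and lies at mm39 chr12:80992269-80997281 on the plus strand. Its counts were 14531 in the scrambled library, 22800 on knockdown, 18745 with wild-type YTHDF2 and 16412 with the mutant. The scrambled library was the lowest, the knockdown the highest, and both rescues lay between them. The log2 ratio was 0.46 on knockdown (0.42 to 0.51), which was above 94.3% of the genes averaging 1000 or more reads. It was -0.16 in the wild-type rescue (-0.20 to -0.12) and -0.30 in the mutant rescue (-0.34 to -0.26), so that the mutant library was below the wild-type one by a log2 ratio of -0.14 (-0.19 to -0.10). The 418 genes of chromosome 12 averaging 200 or more reads had a median of -0.29 on knockdown, while the medians of the other autosomes lay between -0.04 and 0.04. *Srsf5* was 0.75 above its chromosome's median on knockdown, and whether the chromosome has a part in the value was not tested. The GC content of *Srsf5*, 40.1%, was the lowest of the 10 genes, and with the correction its ratios were 0.26, 0.10, -0.22 and -0.32, with a change of sign in the wild-type rescue.

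*Srsf1*, the founding member of the family and a shuttling factor, lies at mm39 chr11:87937325-87944583 on the plus strand. It had 18238 reads in the scrambled library, 21209 on knockdown, 17872 with wild-type YTHDF2 and 17209 with the mutant, and after scaling the libraries were within 0.12 of each other on the log2 scale. The ratio was 0.03 on knockdown (-0.01 to 0.07), -0.12 in the wild-type rescue (-0.16 to -0.08) and -0.12 in the mutant rescue (-0.17 to -0.08). Between the rescues it was -0.01 (-0.05 to 0.04). Corrected for GC content and exon length, these values were -0.09, 0.15, -0.23 and -0.38, so that the sign changed on knockdown and in the wild-type rescue. The last was the lowest corrected value of the 10 between the rescues.

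*Srsf9* encodes a member with a short arginine-serine domain and lies at mm39 chr5:115465236-115471139 on the plus strand. It had 1927 reads in the scrambled library, 2045 on knockdown, 2195 with wild-type YTHDF2 and 1698 with the mutant. Its order of libraries was unlike that of *Srsf6*, with the wild-type rescue the highest and the mutant the lowest. The log2 ratio was -0.10 on knockdown (-0.23 to 0.03), 0.23 in the wild-type rescue (0.11 to 0.35) and -0.09 in the mutant rescue (-0.22 to 0.04). The mutant was below the wild-type library by a log2 ratio of -0.32 (-0.45 to -0.19). The 4 values after GC correction were -0.15, 0.20, 0.03 and -0.18, with a change of sign in the mutant rescue.

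*Srsf4* encodes a family member with a long arginine-serine domain and lies at mm39 chr4:131600841-131629036 on the plus strand. It had 895, 1039, 966 and 917 reads in the scrambled, knockdown, wild-type and mutant libraries. Its log2 ratio was 0.03 on knockdown (-0.16 to 0.21), 0.02 in the wild-type rescue (-0.16 to 0.20) and -0.0036 in the mutant rescue (-0.19 to 0.18), and -0.03 between the rescues (-0.21 to 0.16), so that no difference was detectable at this depth. After GC correction these values were 0.08, -0.10, -0.03 and 0.07, all within the counting intervals. Of its exon bases 34.7% are shared with *Gm12992* on the other strand, and reads there went to neither gene.

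The genes for the SR-like proteins are *Srsf10* and *Srsf11*. *Srsf10* encodes a factor that represses splicing when it is dephosphorylated, as in mitosis and heat shock, and lies at mm39 chr4:135582454-135597219 on the plus strand. It had 8155 reads in the scrambled library, 10574 on knockdown, 8257 with wild-type YTHDF2 and 9194 with the mutant. The knockdown and mutant libraries were above the others. The log2 ratio was 0.19 on knockdown (0.13 to 0.25), -0.23 in the wild-type rescue (-0.29 to -0.17), -0.03 in the mutant rescue (-0.08 to 0.03) and 0.20 for mutant against wild-type (0.14 to 0.27). With the GC correction these values were 0.08, 0.02, -0.13 and -0.15, so that the sign changed in the wild-type rescue and between the rescues.

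*Srsf11* encodes a nuclear protein known to associate with spliceosome components, and lies at mm39 chr3:157716552-157742311 on the minus strand. Its counts were 8657, 9622, 8567 and 9391, libraries ordered as before. After scaling, the libraries were within 0.18 of each other on the log2 scale. The log2 ratio was -0.03 on knockdown (-0.09 to 0.03), -0.04 in the wild-type rescue (-0.10 to 0.02) and 0.14 in the mutant rescue (0.08 to 0.20). The mutant was above the wild-type library by 0.18 (0.12 to 0.24). The 4 corrected values were -0.06, 0.10, 0.02 and -0.07, so that the sign changed in the wild-type rescue and between the rescues.

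**Figure D3:**
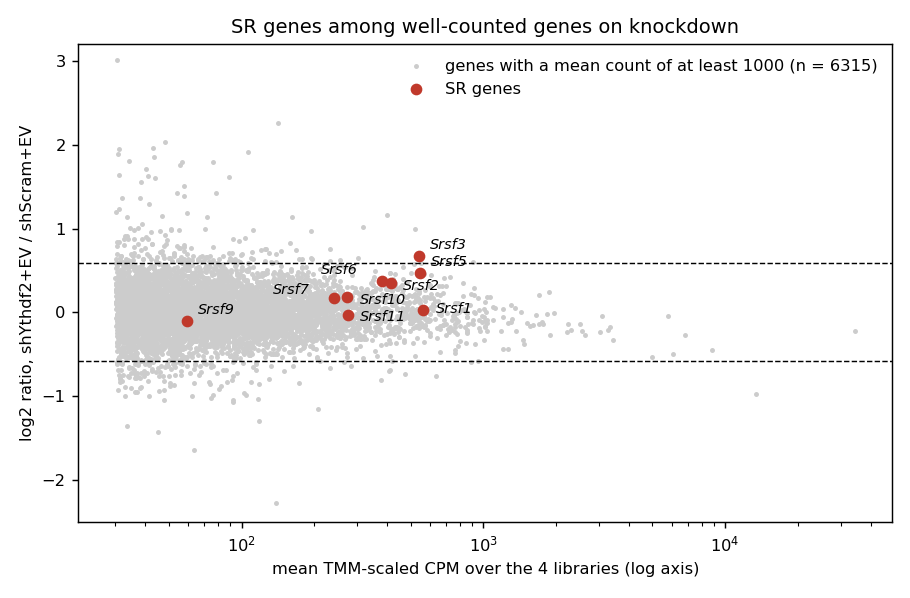
Knockdown log2 ratio (shYthdf2+EV over shScram+EV) against mean TMM-scaled CPM (log axis) for the 6315 genes averaging 1000 or more reads (grey) and the 9 SR genes among them (red). *Srsf4*, with a mean count of 954, is not drawn. Dashed lines mark 1.5-fold, and *Srsf3*, at 0.68, is the SR gene above the upper line.

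Of the 10 SR genes 8 had a GC content below the median of tested genes, and their median was 42.2% in their longest transcripts against 49.9% over the 16727 tested genes with a value (90.0% of those tested). GC content ranged from 40.1% in *Srsf5* to 53.0% in *Srsf4* within the family. Across those 16727 genes, which share the 4 libraries and are not independent replicates, Spearman's correlation of the log2 ratio with GC content was -0.06 on knockdown, 0.34 in the wild-type rescue, -0.16 in the mutant rescue and -0.39 for mutant against wild-type. The comparisons with shYthdf2+DF2WT were thus those in which ratios went most with GC content. Of the 7 SR genes with the lowest GC content, *Srsf3*, *Srsf6*, *Srsf7*, *Srsf10* and *Srsf11* were above 0 for mutant against wild-type and *Srsf1* and *Srsf5* below, while the median gene in their GC range was above 0. Whether GC content has a part in these values of the SR genes was not tested beyond the correction.

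**Figure D4:**
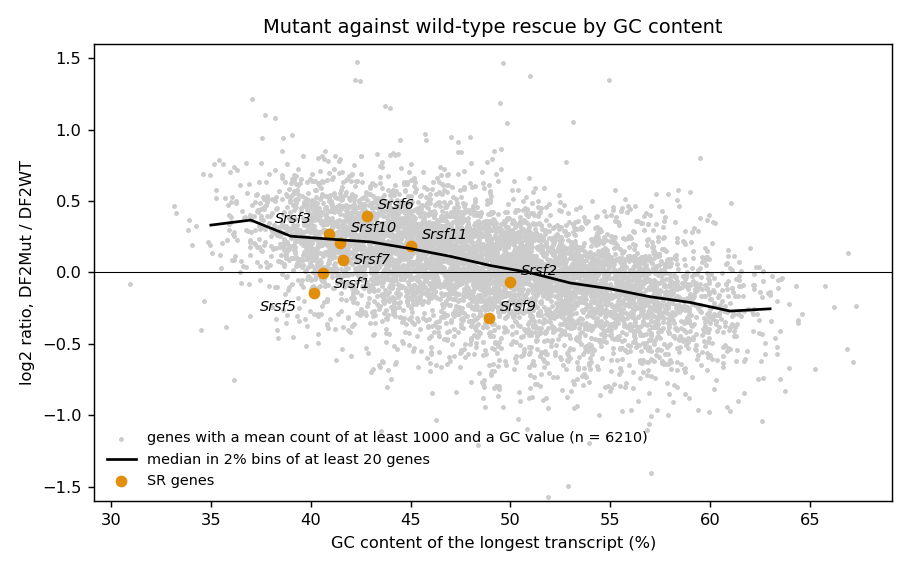
Log2 ratio of shYthdf2+DF2Mut to shYthdf2+DF2WT against the GC content of the longest transcript, for 6210 genes averaging 1000 or more reads that have a GC value (grey, with 7 outside the axis). The black line is the median in 2% bins of at least 20 genes, which runs from 0.33 in the first bin to -0.26 in the last, and the 9 SR genes drawn (orange) lie at 0.39 (*Srsf6*) and below.

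As for sequence, the letters GGACT, a form of the motif at which m6A is commonly placed, were searched on the sense strand of 1 coding transcript per gene, the GENCODE transcript with the longest coding sequence. They were found in 9 of the 10 SR transcripts, all but that of *Srsf5*, and in 91.7% of the transcripts of 14325 tested genes. Per kilobase the SR transcripts held a median of 0.41 matches, against 1.06 over all those genes, and 8 of the 10 were below that value. *Srsf1*, with 2.48, and *Srsf9*, with 2.58, were above it. The *Srsf1* transcript searched was 1209 bases long, against a summed exon length of 6434 bases, so its value holds for that transcript only. *Srsf3*, *Srsf5*, *Srsf6* and *Srsf2*, with the 4 highest knockdown ratios, held 0.38, 0.00, 0.28 and 0.53 matches per kilobase. A match is a description of letters and says nothing of whether m6A was present.

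Other genes of the splicing pathway were set beside the SR genes in 6 lists. None of the genes tested in them was past 2-fold on knockdown or between the rescues. The 30 SR-related proteins, which carry arginine-serine domains without being classical SR proteins, had 20 genes higher and 10 lower on knockdown, with a median log2 ratio of 0.09 and none past 1.5-fold. The highest was *Rsrp1*, with 4108 reads in the scrambled library, 6679 on knockdown, 5809 with wild-type YTHDF2 and 4660 with the mutant and a ratio of 0.52 (0.44 to 0.60). The lowest was *Rbm25*, a regulator of splice site choice, at -0.20 (-0.25 to -0.15), or -0.41 with the GC correction. Between the rescues *Son*, which encodes a nuclear speckle scaffold, was the highest at 0.51 (0.46 to 0.56), or 0.34 with the correction. *Srsf12*, a further SR gene with 85 to 147 reads, was the lowest at -0.48 (-1.03 to 0.05), or -0.62 with the correction.

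Kinases that phosphorylate SR proteins, with the importin gene *Tnpo3*, averaged 10 or more reads for 9 of 10 genes, all but *Srpk3*. On knockdown 3 of these were higher and 6 lower, with a median of -0.09. The kinase gene *Dyrk1a* was the highest both on knockdown, at 0.35 (0.23 to 0.47), and between the rescues, at 0.43 (0.31 to 0.55), and *Clk2* was the lowest in both, at -0.26 (-0.63 to 0.12) and -0.25 (-0.64 to 0.13). With the GC correction the values between the rescues were 0.25 for *Dyrk1a* and 0.02 for *Clk2*. The 26 hnRNP genes, whose proteins often oppose SR proteins in splicing, were split into 13 higher and 13 lower on knockdown with a median of -0.00038. They ranged from *Pcbp2* at -0.35 (-0.40 to -0.31) to *Hnrnpa0* at 0.33 (0.26 to 0.39). *Hnrnpa0* was also the lowest of them between the rescues, at -0.35 (-0.42 to -0.29), and *Ptbp2*, a repressor of neuronal exons, the highest at 0.32 (0.17 to 0.47). Both were at -0.10 after GC correction, so that *Ptbp2* changed sign.

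Of 31 tested core spliceosome genes 15 were higher and 16 lower on knockdown, with a median of -0.0016. *Snrpf* averaged under 10 reads and was not tested. *Snrpb2*, which encodes a protein of the U2 particle, was just past 1.5-fold at 0.59 (0.48 to 0.70) but not with the GC correction, at 0.34, with 2163 reads in the scrambled library, 3699 on knockdown, 2349 with wild-type YTHDF2 and 2396 with the mutant. *Sf3b3*, of the SF3b complex, was the lowest at -0.40 (-0.44 to -0.37). Between the rescues 4 of the 31 core genes were more than 1.5-fold lower in the mutant, the lowest of them the Sm protein gene *Snrpd2*, at -0.73 (-0.86 to -0.61). So were 2762 of the 18586 tested genes, and 234 of the 6315 averaging 1000 or more reads. After GC correction *Snrpd2* was at -0.39 and none of the core genes was past 1.5-fold. The highest was *Cdc5l* at 0.33 (0.28 to 0.37). The medians of the mRNA export list (13 genes, 9 higher) and of the nonsense-mediated decay list (10 genes, 7 higher) on knockdown were 0.06 and 0.10. In export, *Thoc6* was the highest at 0.45 (0.29 to 0.62) and *Thoc7* the lowest at -0.18 (-0.36 to 0.01). Between the rescues *Thoc1* was the highest at 0.58 (0.46 to 0.70) and *Thoc7* again the lowest at -0.33 (-0.52 to -0.14). Corrected for GC content and exon length, *Thoc7* was at -0.45 on knockdown and -0.61 between the rescues, and *Thoc1* at 0.26. In nonsense-mediated decay, *Smg8* was at 0.37 (0.23 to 0.50) and the kinase gene *Smg1* at -0.27 (-0.33 to -0.21) on knockdown, and *Upf2* at 0.48 (0.40 to 0.56) and *Upf3a* at -0.35 (-0.52 to -0.18) between the rescues. With the correction *Upf2* was at 0.15. No gene of the 6 lists other than *Snrpb2* was past 1.5-fold on knockdown, and none other than the 4 core genes between the rescues. With the GC correction none was past 1.5-fold on knockdown, and between the rescues *Srsf12*, *Thoc7* and *Luc7l2*, which is named after its value was seen, were past it in the lower direction. So were 1761 of the 16727 tested genes with a GC value, and 114 of the 6210 of them averaging 1000 or more reads. With the GC correction the knockdown medians of the 6 lists, in the order given, were 0.03, -0.13, -0.11, -0.01, -0.03 and 0.16. The SR genes had the highest median on knockdown, 0.18, without the correction, and with it, at 0.08, they were below the nonsense-mediated decay list. Between the rescues the list medians were 0.08, 0.18, 0.03, -0.11, 0.05 and 0.16, and -0.08, -0.03, -0.13, -0.07, 0.18 and 0.05 with the correction. The lists were not tested against each other.

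**Figure D5:**
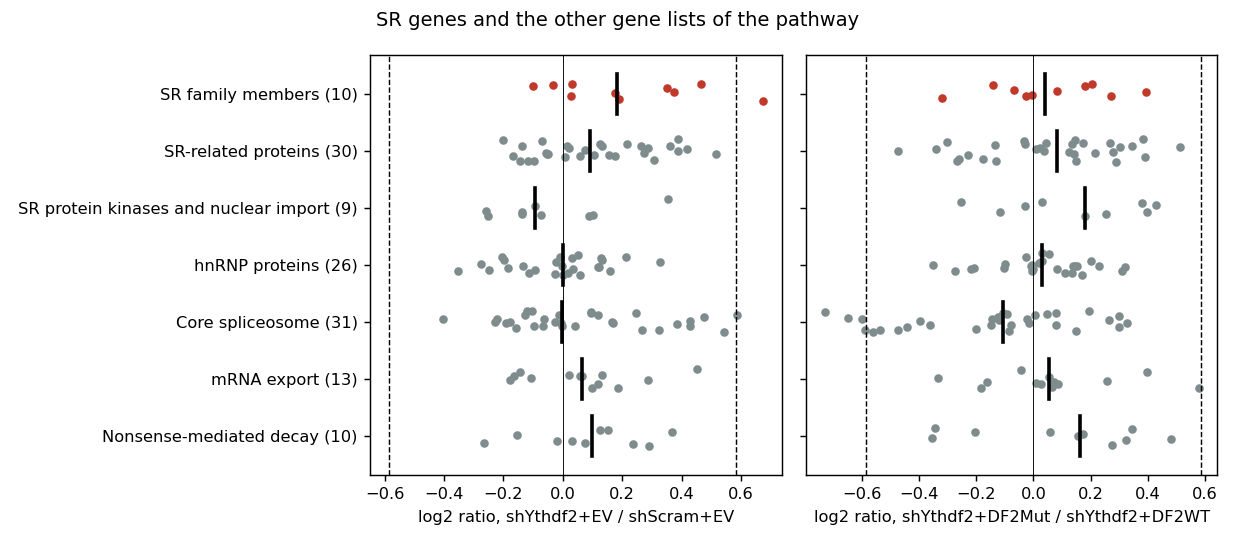
Log2 ratios of the tested genes of the SR family (red) and of 6 other lists of the splicing pathway (grey), on knockdown (left) and for the mutant against the wild-type rescue (right). Black bars are list medians, dashed lines mark 1.5-fold, and numbers in brackets are the genes tested. The SR genes range from -0.10 to 0.68 on the left and from -0.32 to 0.39 on the right.

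The median profile of the SR genes over the 4 libraries, as log2 CPM centred on each gene's own mean, was -0.08 in the scrambled library, 0.10 on knockdown, -0.05 with wild-type YTHDF2 and 0.02 with the mutant. Of 8532 other genes averaging 500 or more reads, the 5 nearest to it by Euclidean distance were *Snu13*, *Zmynd19*, *Arl6*, *Rad23b* and *Ube2w*, at distances of 0.01 to 0.03. *Snu13* encodes a protein of the U4 particle of the spliceosome. The likeness is over 4 libraries only.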

How the data were processed

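The values were read counts per gene in 1 table that the authors deposited, with the summed exon length of each gene. Counting by the authors, per the file headers, used featureCounts 2.0.3 at exons of the UCSC mm39 RefSeq annotation, in paired-end mode but by read and without regard to strand. Reads with several alignments or several genes were left out. The submitters' processing notes name fastp 0.19.4, HISAT2 2.2.1, DESeq2 1.40.2 and the build mm10, which differs from the mm39 of the header, and the build of the alignment was not settled. The study's methods describe 2 replicates per group, but the labels give 1 library per group.

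Counts were scaled with TMM factors (edgeR 4.0.16, R 4.3.3), which were between 0.976 and 1.01, and a prior count of 0.5 was added. Genes averaging 10 or more reads were used, and 2-fold and 1.5-fold were counted. With no replicates no test was run. Single genes have 95% Clopper-Pearson intervals (scipy 1.17.1) and TPM have Poisson intervals, both on read pairs, taken as reads divided by 2. Amplified reads are not independent molecules, so these intervals cover counting error only. Ratios were corrected for GC content (longest GENCODE vM21 transcript) and exon length by a cubic least-squares fit over tested genes. Pathway genes were named when they were the highest or lowest of their list, at a mean count of at least 50, on knockdown or between the rescues, and the 5 genes nearest to the SR median profile, at a mean count of at least 500, were named too. The ratio and its interval were tested on simulated data. The members, the lists and this rule were chosen with earlier results of these data known.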

Additional observations from a re-analysis of the deposited data

How the results depend on the processing

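Other scalings (total counts, upper-quartile factors, size factors of DESeq2 1.42.0, TMM on nuclear genes) and a prior count of 5 kept the sign of all 4 SR gene medians, and *Srsf3* on knockdown stayed the 1 gene past 1.5-fold. The ratio of summed counts was larger than the median on knockdown (0.30) and in the wild-type rescue (-0.21). Correction for GC content and exon length gave medians of 0.084 on knockdown, 0.044 in the wild-type rescue and -0.11 for mutant against wild-type, and left 0 genes past 1.5-fold on knockdown; 12 of 40 single-gene ratios changed sign under it, against 3 of 160 under the scalings. The numbers of all genes past 2-fold, 2380, 1995, 1120 and 2157 in knockdown, wild-type rescue, mutant rescue and mutant against wild-type, became 7627, 6996, 5823 and 7070 at a mean count of at least 1, 49, 30, 3 and 35 at a mean of at least 1000, and 4960, 4330, 2841 and 5028 at 1.5-fold. The order of levels by the length of 1 coding transcript was chosen after seeing the data. With 1 library per group, depth limits *Srsf4* most, and the spread between cultures is unknown. No paired analysis was possible because each group had 1 library and no result came from a test.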
